A study of Homo sapiens with 18 samples.

Results

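The enzymes that write, keep and remove DNA methylation were examined together with a pair of Polycomb subunits in thyroid cancer cells depleted of Dicer1. The genes were DNMT1, DNMT3A, DNMT3B, TET1, TET2, TET3, UHRF1, HELLS, EZH2 and SUZ12, chosen by name for their roles, with earlier results of these data known. All 10 were found among the 58302 genes of the expression table, and all 10 passed the filter on low values in every comparison. Messenger RNA had been sequenced in 18 libraries from TPC1, a line of human papillary thyroid carcinoma cells, and from D11, a TPC1 Dicer1 (+/-) line made by CRISPR-Cas9. D11 is 1 clone, so a difference between D11 and TPC1 is a difference between that clone and its parent. Each line was left without transfection (NT) or received an siRNA, either a negative control (NC) or one against Dicer1 (siDicer). siRNA was used at 5 nM and RNA was taken on day 4. Each of the 6 groups held 3 libraries, and the control group of a line was made of its 6 NT and NC libraries. The labels do not say that replicates came from separate cultures, and the study's methods speak of independent repeats in general, without naming these libraries. The p-values thus measure the spread between these libraries, which may be technical.

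Values are normalised read counts, scaled by the authors to 20 M aligned reads per library (M, mega). Depth recovered from the table was 11.28 to 23.24 M reads, with a median of 15.88 M, and 1 read was worth 0.861 to 1.77 units. Titles and descriptions named different groups for 12 of the 18 samples. Groups follow the descriptions, and in both lines DICER1 was lower in each siDicer library so described than in every control library of that line. A library of D11, NT replicate 1, stood apart, since transcripts of at least 8 kb were low in it (median deviation from the mean of all libraries -0.51 on the log2 scale). Of the markers of thyroid follicular cells given here, PAX8 was high (7361 to 14886), FOXE1 (61 to 214) and TG (32 to 124) were low but present in every library, NKX2-1 was listed at 0 in all 18 libraries, and TSHR and SLC5A5 reached at most 2. Of the epithelial markers, KRT8 and KRT18 were high (at least 2908), KRT7 had 150 to 455, and KRT19, EPCAM and CDH1 reached at most 8, and the blood and endothelial markers at most 24, that of CD14.

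DNA methylation is placed on unmethylated DNA by DNMT3A and DNMT3B, the de novo methyltransferases. After replication it is copied to the new strand by DNMT1, which UHRF1 brings to hemimethylated sites, while HELLS remodels chromatin so that the DNA can be reached. TET1, TET2 and TET3 oxidise methylcytosine, the first step of its removal. EZH2, the catalytic subunit, and SUZ12, a core subunit, belong to Polycomb repressive complex 2 (PRC2), which methylates lysine 27 of histone H3. Dicer1 cuts miRNA precursors to mature miRNAs, and the miR-29 family is known to repress DNMT3 and TET genes, while miR-101 is known to repress EZH2.

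The mature sequences of miR-29 are shown because its seed, bases 2 to 8 of the miRNA and in capitals here, is what a target site pairs with. The sequences were taken from RefSeq (GRCh38.p14).
hsa-miR-29a-3p: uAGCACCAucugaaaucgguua
hsa-miR-29b-3p: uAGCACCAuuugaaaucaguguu
hsa-miR-29c-3p: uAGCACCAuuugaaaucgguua
hsa-miR-101-3p: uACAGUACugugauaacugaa
The miR-29 members shared the seed AGCACCA, so that a match in a 3′ UTR reads TGGTGCT, and a match to miR-101-3p reads GTACTGT. In the canonical transcripts of GENCODE release 44 (GRCh38), TET3 held 10 matches to miR-29-3p in a 3′ UTR of 6000 bases. Of 19539 protein-coding genes searched, TET3 was the 1 gene with so many. DNMT3A held 4 (3′ UTR of 6405 bases), TET2 4 (3284 bases), TET1 3 (2673 bases) and DNMT3B 1 (1453 bases). No match was present in DNMT1 (321 bases), UHRF1 (1351 bases), HELLS (477 bases), EZH2 (263 bases) or SUZ12 (2035 bases). At least 1 match was found in 14.0% of all genes, and the median 3′ UTR was 2786 bases long in those genes against 879 bases in the others, so that the number of matches goes with UTR length. EZH2, with no miR-29-3p match, held 2 matches to miR-101-3p, as did TET2, and 265 of the 19539 genes held as many or more. DNMT3A held 1, and at least 1 was found in 9.9% of all genes. Matches to 2 further seeds were sought. TET3 and TET2 held 3 matches each to miR-26-5p, and 65 of the 19539 genes held as many or more. DNMT3A, TET1 and EZH2 held 1 each, and at least 1 was found in 11.6% of all genes. TET3 and EZH2 held 1 match each to let-7-5p, and at least 1 was found in 9.8% of all genes.

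Sites of TET3, DNMT3A, TET2 and DNMT3B, and for comparison of EZH2, are shown with the seed match in capitals, as the window of 30 bases on the strand of the transcript. In TET3, 3 of the 10 matches lay within 38 bases. The first window below holds, in lower case, the match that precedes its own.
TET3, chr2:74103240-74103269, plus strand: agccagtggtgctctgtgcaTGGTGCTgtg
TET3, chr2:74103257-74103286, plus strand: gcatggtgctgtgcggagccTGGTGCTgta
TET3, chr2:74105405-74105434, plus strand: gcaggttctcacaaaataacTGGTGCTagc
DNMT3A, chr2:25233408-25233437, minus strand: tgtacaacccgacttcataaTGGTGCTttc
TET2, chr4:105277095-105277124, plus strand: tgtttggatgttctaagaaaTGGTGCTaag
DNMT3B, chr20:32809085-32809114, plus strand: acaccttttactcttcttacTGGTGCTatt
EZH2, chr7:148807523-148807552, minus strand: tgaaattctgaatttgcaaaGTACTGTaag
A match describes these letters in the reference. Neither the level of any miRNA nor the use of a UTR in these cells was measured here.

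**Figure D1:**
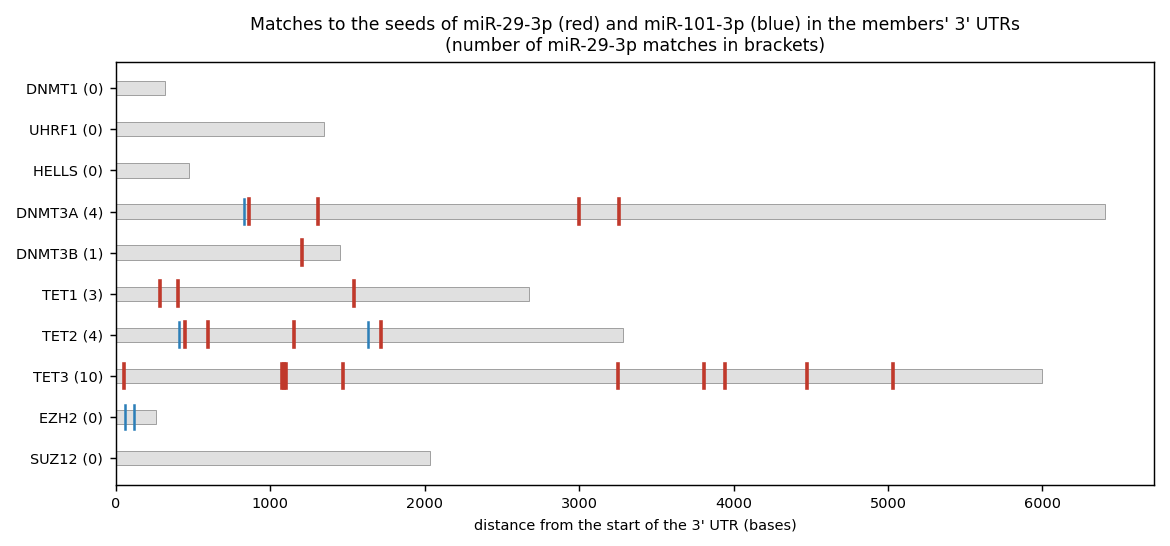
Position of each match to the seeds of miR-29-3p (red) and miR-101-3p (blue) along the 3′ UTR of each gene (grey bar, distance from the UTR start in bases). TET3 holds 10 red marks, DNMT3A and TET2 hold 4 each, and DNMT1, UHRF1, HELLS, EZH2 and SUZ12 hold none.

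The targeted gene was checked first. DICER1 (ENSG00000100697) had 15.9% of the control mean in TPC1 siDicer libraries and 28.8% in D11 siDicer libraries. The log2 change was -2.65 (SE 0.21, adjusted p = 0.000337) in TPC1 and -1.77 (SE 0.25, adjusted p = 0.000649) in D11. DICER1 had higher means in NC than in NT, by 0.58 (adjusted p = 0.133) in TPC1 and 0.71 (adjusted p = 0.153) in D11, so that the change was -2.35 against NT alone and -2.94 against NC alone in TPC1, and -1.41 and -2.12 in D11. Replicate 2 of siDicer kept the highest normalised read count of DICER1 in both lines, 395 against 246 and 255 in TPC1, and 451 against 277 and 297 in D11.

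Among the 10 genes, TET3 was called higher in siDicer than in the joined NT and NC libraries in both lines, and no other gene was called. Against NC alone TET3 was called in neither line, as given below. Calls required an adjusted p below 0.05 by limma and a change of 1.5-fold or more. With the joined controls, 1 of 10 genes was called in each line, against a background of 7.38% of 18475 genes tested in TPC1 and 12% of 18413 in D11. Called higher were 3.22% of all genes in TPC1 and 5.26% in D11, and called lower 4.16% and 6.75%. At an adjusted p under 0.05 with any fold change, TET3 was again the 1 gene in TPC1 (background 13.8%), while 5 of the 10 passed in D11 (background 22.2%), namely TET3 and DNMT3A higher, and DNMT1, UHRF1 and EZH2 lower. The median log2 change of the 10 genes was -0.07 in TPC1 and 0.15 in D11, beside -0.04 in both lines over all genes tested. Libraries of control and siDicer did not overlap, with siDicer higher, for 1 gene in TPC1 (background 7.62%) and 3 in D11 (11%), and with siDicer lower for 0 in TPC1 (9.91%) and 2 in D11 (14.1%).

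**Figure D2:**
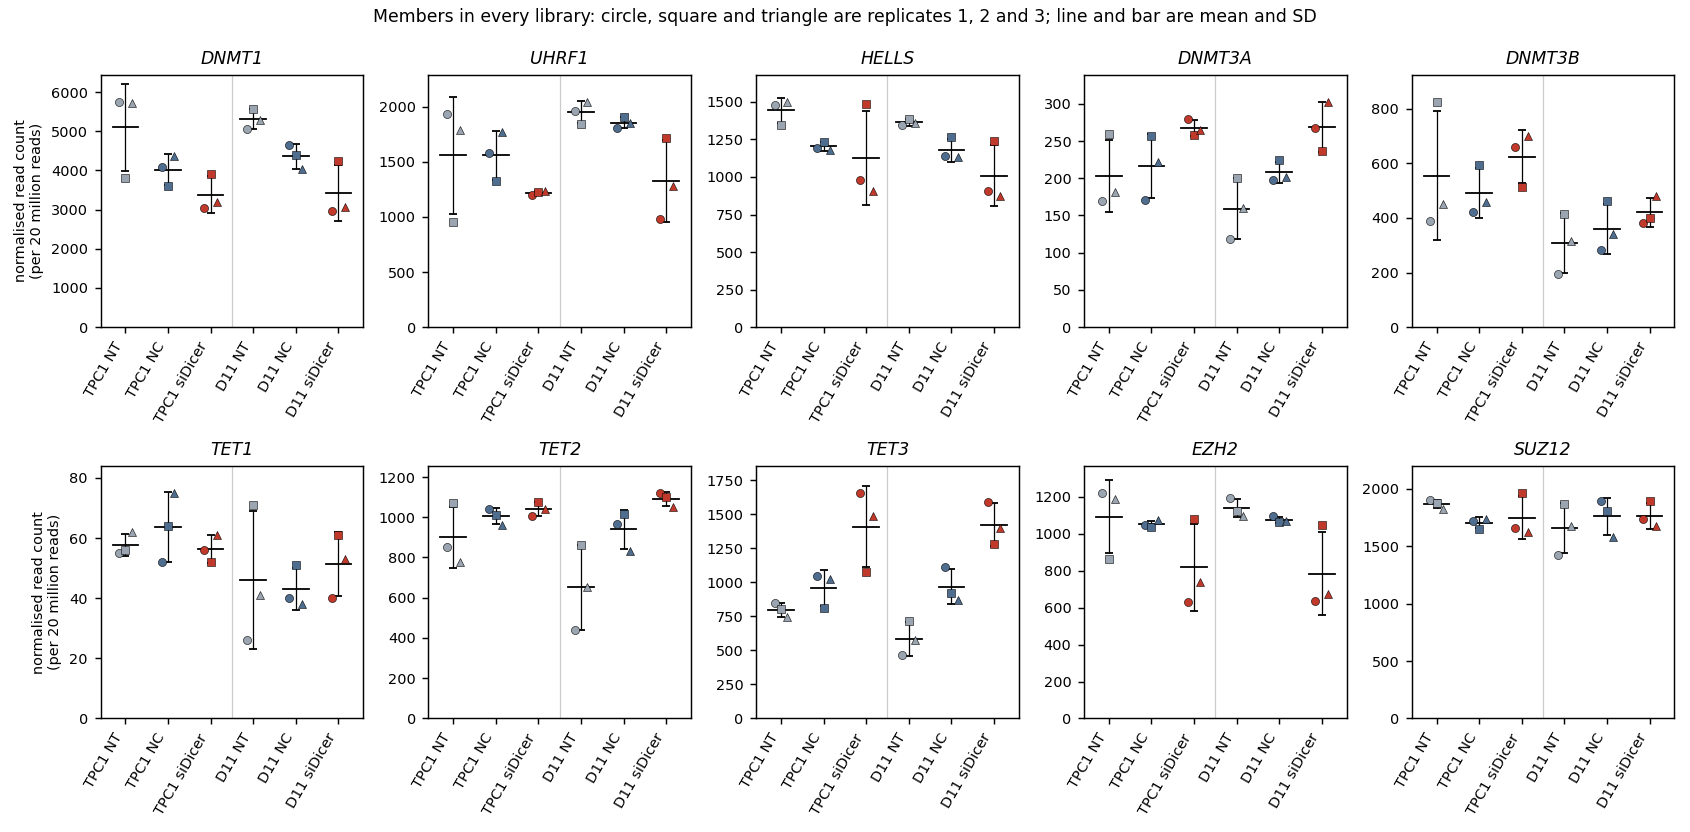
Normalised read count per 20 M reads of each gene in every library, on axes that start at 0; points are libraries, lines and bars the mean and SD of 3. TET3 lies above all controls in every siDicer library of both lines, and EZH2 and HELLS of siDicer replicate 2 (square) lie with the controls or close below them.

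TET3 (ENSG00000187605, chromosome 2, 73984910 to 74108176, plus strand) encodes the TET enzyme best known from the zygote, and had the largest log2 change of the 10 genes in both lines. In TPC1 its normalised read counts in replicates 1, 2 and 3 were 847, 806 and 745 (NT), 1045, 808 and 1022 (NC) and 1657, 1078 and 1488 (siDicer). In D11 they were 464, 714 and 574 (NT), 1111, 923 and 867 (NC) and 1591, 1284 and 1399 (siDicer). The lowest siDicer library thus lay above the highest control library in each line, although in TPC1 replicate 2 did so by a small margin. In TPC1 the control mean was 879 ± 124 (SD, n = 6) and the siDicer mean 1408 ± 298 (SD, n = 3), a log2 change of 0.67 (SE 0.15, 1.59-fold, adjusted p = 0.0162). In D11 these were 776 ± 238 (SD, n = 6) and 1425 ± 155 (SD, n = 3), a log2 change of 0.93 (SE 0.22, 1.91-fold, adjusted p = 0.0113).

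The size of the TET3 change depended on which control was used. NC libraries held more TET3 than NT libraries, with a log2 difference of 0.25 (SE 0.13, adjusted p = 0.521) in TPC1 and 0.74 (SE 0.17, adjusted p = 0.118) in D11. In D11 the NC and NT libraries did not overlap for TET3. Nor did they, with NC lower, for DNMT1, HELLS and EZH2, so that this was not particular to TET3. The share of all genes without such overlap was not counted. With replicate numbers as a block the D11 difference of TET3 was called (adjusted p = 0.0427). The block also raised the calls over all 17992 genes, from 27 higher and 36 lower to 195 and 120. With the block and the trend with transcript length removed the TET3 difference was 0.47 (adjusted p = 0.0313), under the fold minimum. Without the D11 NT library low in long transcripts it was 0.59 (adjusted p = 0.119). Against NC alone the siDicer change was 0.54 (adjusted p = 0.0889) in TPC1 and 0.56 (adjusted p = 0.0139) in D11, under the fold minimum in both, and against NT alone it was 0.79 (adjusted p = 0.0348) and 1.30 (adjusted p = 0.000972). The order of the group means was therefore siDicer, NC and NT in each line. D11 and TPC1 siDicer (1425 and 1408) overlapped in range, as did D11 and TPC1 NC (967 and 958), and D11 NT was the lowest group (584). The call was lost when siDicer replicate 1 or siDicer replicate 3 was left out. Without replicate 1 the change was 0.54 (adjusted p = 0.103) in TPC1 and 0.85 (adjusted p = 0.0558) in D11. Without replicate 3 it was 0.62 (adjusted p = 0.0968) and 0.94 (adjusted p = 0.0501). Calls over all genes fell as well. In TPC1 they fell from 594 higher and 769 lower to 159 and 287 without replicate 1, and 168 and 259 without replicate 3. In D11 they fell from 969 and 1243 to 701 and 949, and 592 and 782. The TET3 change remained called without the D11 NT library low in long transcripts (0.80, adjusted p = 0.00788). It was also called after removal of the trend with transcript length in each library (0.59, adjusted p = 0.0189, in TPC1 and 0.73, adjusted p = 0.00439, in D11).

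TET2 (ENSG00000168769, chromosome 4, 105145875 to 105279816, plus strand), the TET gene often mutated in blood cancers, was not called. Its normalised read counts in D11 were 439, 863 and 652 (NT), 968, 1018 and 832 (NC) and 1121, 1102 and 1050 (siDicer), so the siDicer libraries of D11 lay above all its controls. The log2 change in D11 was 0.51 (SE 0.22, adjusted p = 0.111), and it was 0.22 against NC alone and 0.80, which was called, against NT alone. In TPC1 the libraries overlapped, with 778 to 1070 in the 6 controls and 1005 to 1074 in siDicer, and the log2 change was 0.14 (SE 0.11, adjusted p = 0.443). TET1 (ENSG00000138336, chromosome 10, 68560337 to 68694487, plus strand), known from embryonic stem cells, was low in every library, with normalised read counts of 52 to 75 in TPC1 and 26 to 71 in D11. Its log2 change was -0.10 (SE 0.16, 95% confidence interval -0.45 to 0.26) in TPC1 and 0.25 (SE 0.28, -0.35 to 0.84) in D11. No change was thus shown, and changes within these intervals were not excluded.

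The de novo methyltransferases had higher means in siDicer libraries, by less than TET3, and neither was called. DNMT3A (ENSG00000119772, chromosome 2, 25227855 to 25342590, minus strand) had normalised read counts in TPC1 of 169, 259 and 182 (NT), 171, 257 and 222 (NC) and 279, 258 and 265 (siDicer). In D11 it had 118, 200 and 160 (NT), 198, 224 and 202 (NC) and 267, 237 and 303 (siDicer). The D11 siDicer libraries lay above every D11 control, whereas in TPC1 replicate 2 of NT reached the siDicer range. The log2 change was 0.57 (SE 0.19, 1.49-fold, adjusted p = 0.046) in D11, just under the fold minimum, and 0.37 (SE 0.16, adjusted p = 0.152) in TPC1. In D11 the gene was called with TMM scaling (0.61) and RLE scaling (0.61), with voom on recovered reads (0.59) and against NT alone (0.78), and not against NC alone (0.36, adjusted p = 0.103). DNMT3B (ENSG00000088305, chromosome 20, 32762385 to 32809359, plus strand) had normalised read counts of 388, 826 and 450 (NT), 421, 595 and 460 (NC) and 660, 514 and 699 (siDicer) in TPC1. In D11 they were 193, 415 and 317, then 282, 461 and 340, then 380, 401 and 481. Control and siDicer libraries overlapped in each line, and replicate 2 was the highest of NT and of NC in both. The log2 change of DNMT3B was 0.29 (SE 0.22, adjusted p = 0.4) in TPC1 and 0.37 (SE 0.22, adjusted p = 0.251) in D11. Without the D11 NT library low in long transcripts, the D11 values were 0.23 (adjusted p = 0.337) for DNMT3B and 0.45 (adjusted p = 0.0327) for DNMT3A.

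**Figure D3:**
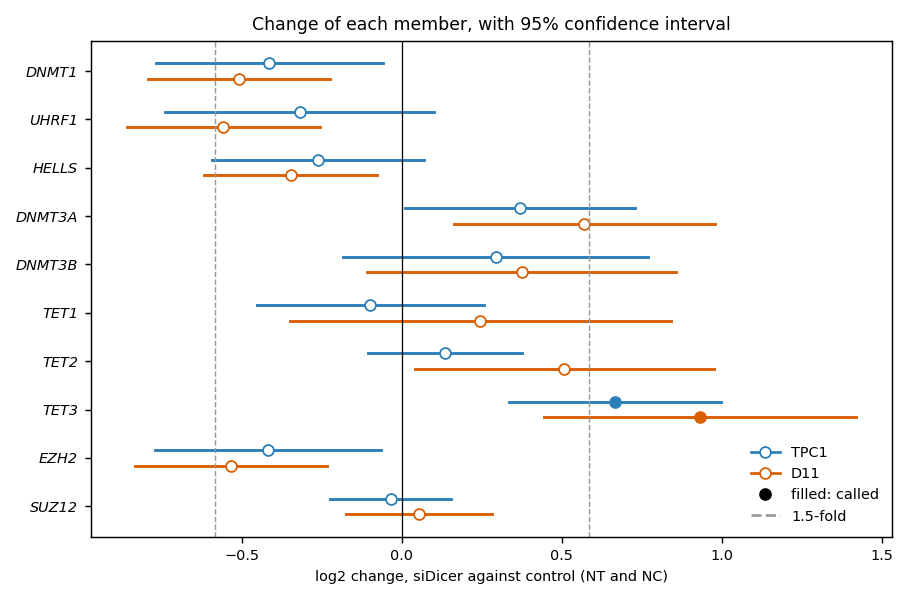
Log2 change of each gene, siDicer against the NT and NC libraries, with its 95% confidence interval, in TPC1 (blue) and D11 (orange); filled points were called and dashed lines mark a 1.5-fold change. TET3 is filled in both lines, at 0.67 and 0.93, and the points of DNMT1, UHRF1, HELLS and EZH2 lie below 0 in both.

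The maintenance genes DNMT1, UHRF1 and HELLS had lower means in siDicer libraries, and in D11 those of DNMT1 and UHRF1 passed the adjusted p without reaching a 1.5-fold change. Against NC alone the D11 values no longer passed (-0.36, adjusted p = 0.0901, for DNMT1 and -0.52, adjusted p = 0.0629, for UHRF1), and against NT alone both were called (-0.65, adjusted p = 0.00884, and -0.59, adjusted p = 0.0343). DNMT1 (ENSG00000130816, chromosome 19, 10133342 to 10231286, minus strand) had normalised read counts in TPC1 of 5759, 3813 and 5724 (NT), 4099, 3604 and 4369 (NC) and 3030, 3919 and 3204 (siDicer). In D11 they were 5062, 5582 and 5290 (NT), 4652, 4397 and 4027 (NC) and 2968, 4244 and 3058 (siDicer). In both lines siDicer replicates 1 and 3 lay below every control and replicate 2 lay among the controls. The log2 change was -0.41 (SE 0.16, adjusted p = 0.11) in TPC1 and -0.51 (SE 0.13, adjusted p = 0.0159) in D11.

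UHRF1 (ENSG00000276043, chromosome 19, 4903080 to 4962154, plus strand) separated fully in D11, with normalised read counts of 977, 1717 and 1284 in siDicer against 1805 to 2045 in the 6 controls. Its log2 change in D11 was -0.56 (SE 0.14, adjusted p = 0.0132). In TPC1 siDicer it had 1197, 1226 and 1230, inside the control range of 952 to 1937, where NT replicate 2 was the lowest library, and the log2 change was -0.32 (SE 0.19, adjusted p = 0.291). HELLS (ENSG00000119969, chromosome 10, 94545329 to 94613905, plus strand) had 983, 1485 and 909 in TPC1 siDicer against 1182 to 1502 in its controls, and 908, 1241 and 874 in D11 siDicer against 1130 to 1387. Here too replicates 1 and 3 lay below all controls and replicate 2 among them. The log2 change of HELLS was -0.26 (SE 0.15, adjusted p = 0.27) in TPC1 and -0.35 (SE 0.12, adjusted p = 0.0618) in D11. With the replicate block, HELLS in D11 passed the adjusted p (0.0386) under the fold minimum.

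Of the PRC2 subunits, EZH2 resembled the maintenance genes and SUZ12 did not. EZH2 (ENSG00000106462, chromosome 7, 148807257 to 148884321, minus strand) had normalised read counts in TPC1 of 1221, 863 and 1190 (NT), 1047, 1036 and 1073 (NC) and 631, 1080 and 741 (siDicer). In D11 they were 1195, 1124 and 1097 (NT), 1094, 1064 and 1070 (NC) and 634, 1045 and 674 (siDicer). Every D11 siDicer library was below every D11 control, replicate 2 narrowly, while TPC1 siDicer replicate 2 lay among its controls. The log2 change was -0.42 (SE 0.16, adjusted p = 0.105) in TPC1 and -0.53 (SE 0.14, adjusted p = 0.016) in D11, where it was -0.49 (adjusted p = 0.0741) against NC alone and -0.57 (adjusted p = 0.0381) against NT alone. SUZ12 (ENSG00000178691, chromosome 17, 31937007 to 32001038, plus strand) had 1627 to 1965 in TPC1 siDicer against 1654 to 1904 in the controls, and 1673 to 1893 in D11 siDicer against 1428 to 1898. Its log2 change was -0.03 (SE 0.09, 95% confidence interval -0.22 to 0.15) in TPC1, with the opposite sign under TMM scaling (0.04), and 0.05 (SE 0.10, -0.17 to 0.28) in D11.

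The siDicer replicate 2 libraries, which kept the most DICER1, had DNMT1, UHRF1, HELLS and EZH2 nearest to the controls in D11. Without siDicer replicate 2, EZH2 was called lower in TPC1 (-0.64, adjusted p = 0.0104), and in D11 DNMT1 (-0.67, adjusted p = 0.00532), UHRF1 (-0.76, adjusted p = 0.00197) and EZH2 (-0.76, adjusted p = 0.000982) were called lower. HELLS without it was -0.48 (adjusted p = 0.0203) in TPC1 and -0.51 (adjusted p = 0.0144) in D11, under the fold minimum. Over all genes in TPC1, those called lower rose from 769 of 18475 to 1250 of 18308 without siDicer replicate 2, and those called higher from 594 to 844. In D11, those called lower went from 1243 of 18413 to 1280 of 18298 without siDicer replicate 2, and those called higher from 969 to 866. The choice to dwell on that library was made with its values known. Without siDicer replicate 1 the D11 values no longer passed the adjusted p, with -0.42 (0.0885) for DNMT1, -0.36 (0.0728) for UHRF1 and -0.40 (0.0957) for EZH2. Nor did they without replicate 3, with -0.44 (0.0962), -0.55 (0.0602) and -0.44 (0.102). In TPC1 the value of EZH2 was -0.25 without replicate 1 and -0.37 without replicate 3, and that of HELLS -0.18 and -0.12.

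Genes that cells use in S phase were examined beside these 4 genes. A list of 24 S phase genes, such as the MCM helicase subunits and the ribonucleotide reductase subunits RRM1 and RRM2, had negative log2 changes for all 24 in both lines, with a median of -0.42 in TPC1 and -0.58 in D11. Called lower were 3 of the 24 in TPC1 (background 4.16%; RRM1 -0.60, MCM6 -0.63 and POLA1 -0.66), where TMM scaling left 0 and RLE scaling 1. In D11, 12 were called lower (background 6.75%; RRM2, CCNE2, RRM1, MCM3, CHAF1B, MCM6, MCM10, MCM5, MCM7, GINS2, POLA1 and CDC45), from -0.59 to -0.94, and 5 against NC alone. In D11 23 of the 24 were also lower in NC than in NT (median -0.24, 10 at an unadjusted p under 0.05 and 0 called by limma or voom), and in TPC1 14 of 24 were (median -0.06). Per library, the median deviation of the list from the mean of all libraries was -0.55, 0.00 and -0.46 in TPC1 siDicer replicates 1, 2 and 3, and -0.50, -0.06 and -0.44 in D11 siDicer. Controls ranged from 0.01 to 0.47 apart from TPC1 NT replicate 2 (-0.36), the library that was also lowest in UHRF1 among the controls. The part of the S phase genes in the DNMT1, UHRF1, HELLS and EZH2 values was not tested. In bulk RNA, fewer cells in a phase and less RNA per cell cannot be told apart.

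**Figure D4:**
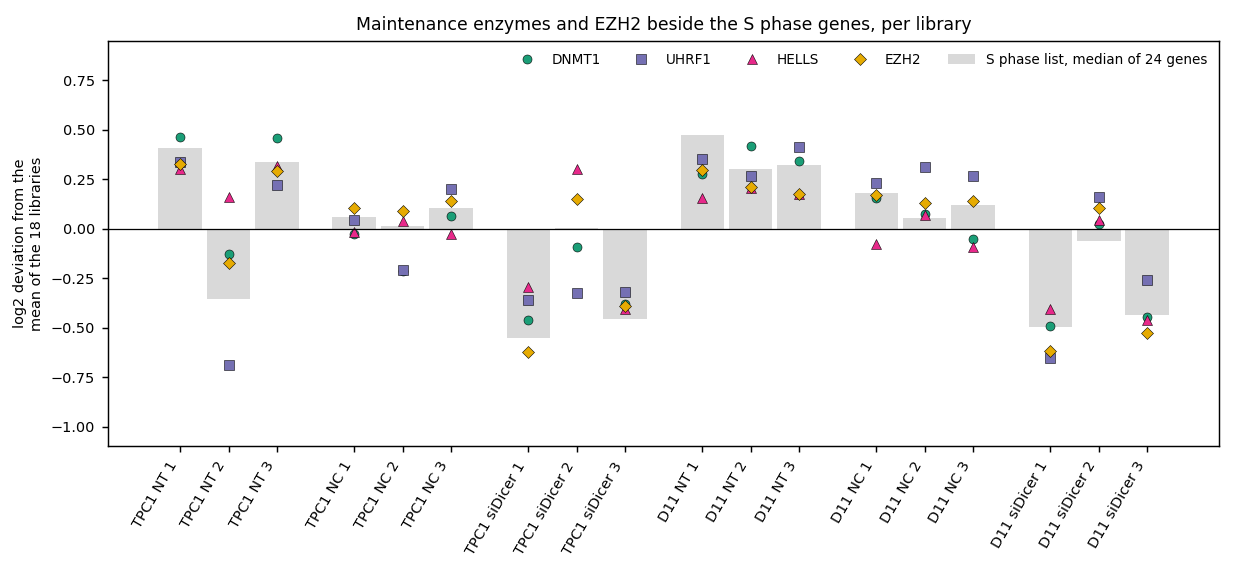
Log2 deviation of DNMT1, UHRF1, HELLS and EZH2 (points) from their own mean over 18 libraries, with the median deviation of 24 S phase genes (grey bars), for every library. Bars and points are low in siDicer replicates 1 and 3 of both lines, and the bar is near 0 in replicate 2 (0.00 and -0.06).

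Promoters of these genes were searched for a pair of E2F motifs, TTTCCCGC and TTTGGCGC, on both strands in RefSeq windows of 300 bases (GRCh38.p14, 250 before to 50 after each start). All 10 genes were matched, several with more than 1 start. Either motif was present in 2.27% of 35116 promoters and in 12 of 27 promoters of the S phase genes. The motifs are shown in capitals in 30 bases of the promoters that held them.
UHRF1, chr19:4909476-4909505, plus strand: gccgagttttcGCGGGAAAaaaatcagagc
HELLS, chr10:94545769-94545798, plus strand: gatgacaggatTTTCCCGCgaaggagaagc
HELLS, chr10:94545701-94545730, plus strand: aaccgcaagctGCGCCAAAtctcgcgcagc
EZH2, chr7:148884272-148884301, minus strand: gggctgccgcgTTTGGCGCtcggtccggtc
SUZ12, chr17:31936807-31936836, plus strand: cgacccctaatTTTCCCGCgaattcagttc
In UHRF1 1 of 3 promoters held a motif and in EZH2 1 of 2. SUZ12 held one as well, and DNMT1 held none. The letters were also absent from these windows of DNMT3A, DNMT3B, TET1, TET2 and TET3. Neither the use of these motifs in the cells nor their relation to the changes of these genes was tested.

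NC was compared with NT because the control group joins them. None of the 10 genes was called in either line (limma, background 0.111% in TPC1 and 0.35% in D11), and voom on recovered reads called 0 as well. An unadjusted p under 0.05 was reached by 1 gene in TPC1 (background 11.1%), HELLS (-0.26, adjusted p = 0.351), and by 3 in D11 (background 13.6%), TET3, TET2 (0.58, adjusted p = 0.306) and DNMT1 (-0.29, adjusted p = 0.274). The NC library values of TET2 in D11 were 968, 1018 and 832 against 439, 863 and 652 in NT, so that 1 NT library reached the NC range. In the D11 NT library low in long transcripts, TET2, TET3, TET1, DNMT3A, DNMT3B and SUZ12 were the lowest of all 18 libraries.

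The clone D11 was compared with TPC1 over 12 libraries, the NT and NC of both lines, in a fit that included transfection. None of the 10 genes was called (limma, background 1.02%), 3 reached an unadjusted p under 0.05 (background 9.85%), and voom called 0. DNMT3B was lower in D11 by 0.65 on the log2 scale (SE 0.21, adjusted p = 0.264), from 523 ± 164 (SD, n = 6) in TPC1 to 335 ± 95.5 (SD, n = 6), and it was called with the replicate block (adjusted p = 0.00411). The ranges overlapped, 388 to 826 against 193 to 461. With the block, calls over all 18814 genes rose as well, from 27 higher and 164 lower to 61 and 308. TET1 was -0.49 (SE 0.21, adjusted p = 0.438) and UHRF1 0.32 (SE 0.14, adjusted p = 0.464). DICER1 itself was called lower in D11, by -0.68 (SE 0.12, adjusted p = 0.00561). The call was lost under the fold minimum without D11 NT replicate 1 (-0.58, adjusted p = 0.00281) and with length trends removed (-0.56, adjusted p = 0.00107). It was also lost in NT libraries alone (-0.75, adjusted p = 0.406) and in NC libraries alone (-0.62, adjusted p = 0.107).

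Whether the siDicer change differed between the lines was tested by the interaction of line and condition over all 18 libraries. None of the 10 genes was called (limma, background 0%, with 0.693% of 19181 genes at an unadjusted p under 0.05), none reached an unadjusted p under 0.05, and voom called 0. The largest differences among the 10 were those of TET2 (0.37, SE 0.26, 95% confidence interval -0.18 to 0.92), TET1 (0.34, SE 0.33, -0.34 to 1.02) and TET3 (0.26, SE 0.29, -0.35 to 0.88). The rise of TET3 in D11 was thus not shown to differ from that in TPC1.

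Levels were compared between genes only per kb of merged exons. In TPC1 control libraries the highest were UHRF1 (303 ± 70.7 normalised reads per kb, SD, n = 6), DNMT1 (297 ± 61.8) and SUZ12 (273 ± 14.8), which did not differ beyond their spread. Next came EZH2 (99.5 ± 11.9), HELLS (93.0 ± 10.1), DNMT3B (76.1 ± 23.9) and TET3 (67.9 ± 9.61), each within the spread of its neighbour, and then TET2 (57.8 ± 6.94). DNMT3A (15.2 ± 3.03) and TET1 (6.31 ± 0.87) were the lowest. Per kb of the longest transcript, DNMT1 came first (637), followed by SUZ12 (398) and UHRF1 (362), and DNMT3A (22.1) and TET1 (6.31) were again last. Between them lay HELLS (238), EZH2 (238), DNMT3B (120), TET2 (93.7) and TET3 (72.9), so that TET2 and TET3 changed places.

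Other genes of the same pathways are read beside the share of all genes called, 7.38% in TPC1 and 12% in D11. Of 13 readers and partners of DNA methylation tested, CDCA7, a partner of HELLS, was called lower in both lines (-0.71, adjusted p = 0.0153, in TPC1 and -0.86, adjusted p = 0.00245, in D11), and no other was called. In TPC1 that call was lost against NT or NC alone. Among 11 DNA demethylation and base excision genes, none was called (limma; 4 in TPC1 and 1 in D11 at an unadjusted p under 0.05, backgrounds 30.5% and 35.5%, and 0 by voom), with GADD45A at 0.51 (adjusted p = 0.0246) and UNG at -0.28 (adjusted p = 0.157) in D11. Of 11 other PRC2 subunits tested, PHF19, an accessory subunit that binds methylated histone H3, was called lower in D11 (-0.67, adjusted p = 0.00116) and was -0.39 (adjusted p = 0.0268) in TPC1.

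None of 20 subunits of Polycomb repressive complex 1, which ubiquitinates histone H2A, was called in either line (limma; 7 in TPC1 and 8 in D11 at an unadjusted p under 0.05, near the backgrounds of 30.5% and 35.5%, and 0 by voom). PCGF5 (-0.47, adjusted p = 0.00497) and PCGF3 (0.47, adjusted p = 0.00531) in D11 stayed under the fold minimum. Of 7 genes for enzymes, or their partners, that remove the Polycomb histone marks, KDM6B was called higher in both lines. KDM6B, a demethylase of lysine 27 of histone H3, had 0.61 (adjusted p = 0.0475) in TPC1 and 0.78 (adjusted p = 0.0311) in D11. Against NC alone it was called in neither line. In TPC1 the call was also lost against NT alone.

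The other known miR-29 targets were described beside DNMT3 and TET genes. Of 20 listed, 16 were tested, and 6 were called higher in TPC1 (background 3.22%) and 7 in D11 (5.26%), with none called lower. The collagens COL4A1, COL4A2 and COL5A1, the matrix proteins FBN1 and SPARC, and the kinase subunit PIK3R1 were called in both lines, and the cell cycle kinase CDK6 in D11. COL5A1 had the largest log2 changes, 1.61 in TPC1 and 1.72 in D11, followed by SPARC with 1.21 and 1.43. The median of the 16 was 0.45 in TPC1 and 0.49 in D11, against -0.04 over all genes in both. This list too was higher in NC than in NT, with positive values for 15 of 16 genes in TPC1 (median 0.20) and 16 of 16 in D11 (median 0.43), beside medians of 0.00 and 0.02 over all genes. Called in NC against NT were 1 of the 16 in TPC1 (background 0.111%) and 2 in D11 (background 0.35%), by limma and by voom.

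Over all genes with a 3′ UTR, those with 3 or more miR-29-3p matches were called higher in 9.09% of 77 tested in TPC1 and 10.39% of 77 in D11. Genes with 2 matches were called higher in 6.69% of 299 and 11.3% of 292, above the former class in D11. Genes with 1 match were called higher in 5.43% of 1787 and 9.56% of 1779, and genes with none in 3.14% of 11103 and 5.21% of 11041. The median 3′ UTR was 5222, 3838, 2580 and 879 bases in these classes. For genes with a match to let-7-5p, whose seed is different, the share called higher was 5.53% in TPC1 and 8.58% in D11. Without one it was 3.32% and 5.63%. For miR-26-5p it was 4.69% and 8.15% with a match, and 3.39% and 5.62% without one. A higher share with a match was thus seen for these seeds too, which TET3 also matches. None of these shares was tested. TET3, with 10 matches, was called in both lines with the joined controls and in neither against NC alone. TET2 and DNMT3A, with 4 each, were not called, but DNMT3A in D11 missed only the fold minimum (1.49-fold, limma adjusted p = 0.046). DNMT3B, with 1, was not called, and TET1, with 3, had values of opposite sign in the lines. A relation between the number of matches and the change was not tested.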

How the data were processed

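Poly-A selected, stranded mRNA libraries had been sequenced from 18 samples. Per the labels and the study's methods, the authors aligned reads to GRCh38 with STAR 2.5.3a, assigned them to genes (Ensembl release 90) by HTSeq 0.9.1, then set every library to 20 M aligned reads. The strand setting of counting is not given in the sources used here, so values of overlapping genes (S1PR2 with DNMT1, TET2-AS1 with TET2) are uncertain. The deposited values are a normalised score, rounded up and not counts, in 58302 genes and 18 columns. The columns sum to 20010707 to 20018484, and in 16 libraries at least 99.43% of values above 0 came back as whole reads, that is, equalled a whole multiple of the value of 1 read, rounded up, with no further tolerance.

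The edgeR test that the authors name needs counts and was not used here. Values were taken as log2(value + 1), on which a fold change understates low genes. limma 3.58.1 (R 4.3.3, trend on) was fitted to genes that reached 10 in 3 or more libraries of the comparison. P-values were adjusted by Benjamini-Hochberg over all genes tested, and calls needed adjusted p below 0.05 and a change of 1.5-fold or more. The test was checked on simulated data without replicate or length effects, so that the check does not cover them.

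The 10 genes, the other lists and the rule for named genes (DICER1, the 10 genes, of each list those called, otherwise the 2 with the smallest adjusted p in D11, and the 2 genes of most similar pattern for each) were chosen with earlier results of these data known. A gene of similar pattern and a marker gene are not reported here. Other lists held miR-29 targets, S phase genes, partners of DNA methylation, DNA demethylation, PRC1, PRC2, and enzymes removing their marks with partners of these enzymes. PCNA, TDG and MBD4 are each in 2 lists. Positions came from GENCODE release 44 (98.7% of identifiers matched). Replicate numbers were left out of the main fits and entered as a block only in an alternative, in both lines. In D11, deviations from group means correlated by over 0.1 in 9 of 9 same-numbered pairs (0.108 to 0.504), while in TPC1 8 of 9 did (0.099 to 0.542). Of 18 pairs with different numbers, 3 did in D11 (-0.419 to 0.206) and 3 in TPC1 (-0.526 to 0.195). The lowest same-numbered pairs lie close to that limit. Over genes with a mean of at least 100, 8 of 9 same-numbered pairs passed it in D11 (0.075 to 0.722) and 9 of 9 in TPC1 (0.109 to 0.676). What a number stands for is not given. Alternatives changed the scaling (TMM, RLE), the filter (none, or mean 100 and above), the pseudocount (0.1, 10), the fold minimum (none), the model (voom on recovered reads, a replicate block, all 18 libraries), the control (NT or NC alone) or the labels (titles), or left out single libraries. Removal of length trends and joint omission of libraries were added after seeing the data.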

Additional observations from a re-analysis of the deposited data

How the results depend on the processing

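TET3 remained the called gene of the 10 in TPC1 and in D11 under the changes of filter and pseudocount, the replicate block, the fit of all 18 libraries and the removal of length trends, and DICER1 was called in both lines in each setting that kept the groups of the descriptions. In TPC1 the number of genes called fell from 1 to 0 against NC alone and with groups from the titles, and was 2 without NT replicate 2 and siDicer replicate 2 together. With single libraries left out it was 0 to 2. Over all genes in TPC1, 594 higher and 769 lower of 18475 were called in the main fit. Against NC alone these were 509 and 553 of 17923. Without NT replicate 2 and siDicer replicate 2 together they were 1063 and 1417 of 18085. In D11 the number of the 10 genes called was 2 with TMM scaling, RLE scaling and voom on recovered reads. It was 5 against NT alone and without the fold minimum, and 0 against NC alone and with groups from the titles. It was 4 without NT replicate 1 and siDicer replicate 2 together, and 0 to 4 with single libraries left out. Over all genes in D11, 969 higher and 1243 lower of 18413 were called in the main fit, and 22.2% passed without the fold minimum. TMM scaling gave 1121 and 1070 of 18244, RLE scaling 1148 and 1042 of 18200, and voom 1061 and 1197 of 18413. NT alone gave 1518 and 1537 of 17818, and NC alone 703 and 882 of 17887. With groups from the titles the DICER1 change was -0.13 in each line, and 0 of all genes were called. The replicate block called 1 gene, TET3, in NC against NT in D11, and 1 gene, DNMT3B, in D11 against TPC1, there also with length trends removed. The block changed no other call of the 10 genes, and it raised the calls over all genes in both of these comparisons.

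Changes of sign were seen for genes near 0. SUZ12 in TPC1 was 0.035 with TMM scaling, 0.010 with RLE scaling and 0.031 against NC alone, and -0.121 to 0.015 when libraries were left out in turn. In D11, without NT replicate 1 and siDicer replicate 2 together, TET1 was -0.025 and SUZ12 -0.048, while leaving out single libraries gave 0.108 to 0.411 for TET1 and 0.002 to 0.091 for SUZ12. Causes of these shifts were not tested. With 3 libraries per group, the 95% confidence interval of the siDicer change reached from -0.35 to 0.84 for TET1 in D11. No change of this low gene was thus shown, and changes within that interval were not excluded.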

Other observations

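Genes outside the 10 with the most similar pattern were sought by the root mean square difference of log2 values over the 6 group means, each gene centred on its own mean, among 12499 genes with a mean of at least 100. For TET3, whose group means spread by 0.45 (root mean square), SHROOM4 was among the nearest (0.04). For DNMT3A the 2 nearest were LRIG2 and SRGAP1, for DNMT3B ARRB1 and AP001972.5, for TET1 MYLIP and ZNF710-AS1, and for TET2 STX17 and BIRC6. For DNMT1 they were EXOSC8 and MRPS14, for UHRF1 SPR and DOK1, for HELLS AC005899.8 and BBIP1, for EZH2 AC009948.1 and SUB1, and for SUZ12 AC009060.1 and XPO7. Likeness over 6 group means describes these libraries and was not tested.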
